A study of Mus musculus with 3 samples.

Results

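The androgen-binding secretoglobins described here are 6 of the 32594 genes counted in single cells of mouse prostate: Scgb1b27, Scgb2b27, Scgb2b7, Scgb2b20, Scgb1b20 and Scgb2b12. They were chosen by symbol from results of these same libraries, in which luminal cells of the Srd5a2 knockout differed from luminal cells of the heterozygotes, so their knockout values are given as a description and carry no test. Srd5a2 encodes the steroid 5α-reductase that turns testosterone into dihydrotestosterone. The tested library came from Srd5a2 knockout prostate (n = 1) and the libraries it was set against from Srd5a2 heterozygote prostate (n = 2), all from C57BL6 mice labelled 12 to 15 weeks old. No wild-type library was used here, so both genotypes carry at least 1 mutated Srd5a2 allele. Dihydrotestosterone was present in the digestion buffer of all 3 tissues (37 °C, 2 h), so cells of both genotypes met that androgen after collection. The labels do not give the number of animals in a library.

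Androgen-binding proteins of the mouse are small secreted dimers. An alpha subunit, made by a gene of the Scgb1b group, is joined by disulfide bonds to a beta or gamma subunit, made by a gene of the Scgb2b group. They are best known from mouse saliva and tears, where Scgb1b27 and Scgb2b27 are the classical salivary pair, and the purified proteins bind steroid hormones. Of the 6 genes, Scgb1b27 and Scgb1b20 encode alpha subunits and Scgb2b27, Scgb2b7, Scgb2b20 and Scgb2b12 encode subunits of the other kind. In the mouse genome the genes lie in many alpha and beta-gamma neighbour pairs that face away from each other, and several copies are nearly alike in sequence.

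In the GENCODE annotation of mm10, all Scgb1b and Scgb2b genes lie within 2810 kb of chromosome 7. The pair Scgb2b27 (ENSMUSG00000066584.10, 34011921 to 34013942, minus strand) and Scgb1b27 (ENSMUSG00000066583.4, 34021483 to 34022881, plus strand) is 7540 bp apart. The pair Scgb2b20 (ENSMUSG00000094305.1, 33364343 to 33366322, minus strand) and Scgb1b20 (ENSMUSG00000094978.2, 33373234 to 33374559, plus strand) is 6911 bp apart. Scgb2b7 (ENSMUSG00000094053.2) lies at 31703779 to 31705757 and Scgb2b12 (ENSMUSG00000097982.1) at 32325286 to 32327245, both on the minus strand. Their transcripts are 421 to 523 bases long.

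The coding sequences show which counts can be told apart. Scgb2b7 and Scgb2b20 differ by 6 edits over 336 coding bases (98.2% identity), and Scgb2b12 is 93.2% identical to each. Scgb2b12 is closer still to Scgb2b19 (98.5%), and Scgb1b20 to Scgb1b29 (98.9%). By contrast Scgb1b27 and Scgb2b27 have no near copy, their closest relatives being Scgb1b30 (88.8%) and Scgb2b26 (74.1%). Of all stretches of 90 bases in a transcript, 43.4% in Scgb1b20, 36.0% in Scgb2b12, 26.5% in Scgb2b7 and 26.3% in Scgb2b20 also occur in another Scgb transcript, against 0% in Scgb1b27 and Scgb2b27. How the authors' counting treated reads that fit several copies is not given in the sources used here, so the separate values of Scgb2b7, Scgb2b20, Scgb1b20 and Scgb2b12 are uncertain.

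The 250 bases before the transcription start are printed for 5 of the 6 genes (RefSeq promoters, GRCm38.p6, 5′ to 3′ on the gene's strand). The knockout's totals over kept cells separate Scgb2b7, Scgb2b20 and Scgb2b12 from Scgb2b27 and Scgb1b27. For Scgb2b27 this separation is limited, since 4652 of its 5564 knockout UMIs lay in 1 cell. In luminal cells it too was below both heterozygotes (6.20 CPM, against 34.1 and 15.6). Whether the promoter sequences bear on the levels was not tested. They lie at chr7:31705755-31706004 for Scgb2b7, chr7:33366320-33366569 for Scgb2b20, chr7:32327246-32327495 for Scgb2b12 and chr7:34013943-34014192 for Scgb2b27, all on the minus strand, and at chr7:34021231-34021480 on the plus strand for Scgb1b27. Capitals mark the steroid receptor half-site AGAACA or its reverse complement TGTTCT, as searched on both strands.
Scgb2b7: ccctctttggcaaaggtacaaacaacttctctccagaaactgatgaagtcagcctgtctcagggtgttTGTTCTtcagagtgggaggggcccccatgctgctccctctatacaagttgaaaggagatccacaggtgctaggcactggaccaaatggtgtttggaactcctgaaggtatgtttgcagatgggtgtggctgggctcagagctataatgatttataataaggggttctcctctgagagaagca
Scgb2b20: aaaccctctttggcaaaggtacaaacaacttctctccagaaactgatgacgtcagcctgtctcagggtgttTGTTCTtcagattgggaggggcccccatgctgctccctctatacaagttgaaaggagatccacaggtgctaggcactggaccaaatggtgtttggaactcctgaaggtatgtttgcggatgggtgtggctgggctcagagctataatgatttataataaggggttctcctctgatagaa
Scgb2b12: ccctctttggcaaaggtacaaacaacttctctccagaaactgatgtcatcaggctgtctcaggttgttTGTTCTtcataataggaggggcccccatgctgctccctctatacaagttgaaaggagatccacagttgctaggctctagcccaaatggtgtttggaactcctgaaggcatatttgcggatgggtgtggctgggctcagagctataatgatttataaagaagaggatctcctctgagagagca
Scgb2b27: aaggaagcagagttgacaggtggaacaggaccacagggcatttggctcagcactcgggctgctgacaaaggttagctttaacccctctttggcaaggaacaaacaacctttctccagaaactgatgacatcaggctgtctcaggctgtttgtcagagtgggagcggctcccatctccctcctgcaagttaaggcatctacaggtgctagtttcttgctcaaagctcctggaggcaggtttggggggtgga
Scgb1b27: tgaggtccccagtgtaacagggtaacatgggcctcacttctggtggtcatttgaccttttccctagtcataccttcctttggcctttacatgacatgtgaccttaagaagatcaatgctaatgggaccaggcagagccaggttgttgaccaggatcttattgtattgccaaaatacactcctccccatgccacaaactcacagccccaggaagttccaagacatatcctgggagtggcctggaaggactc
The first 3 windows are close copies, with Scgb2b7 96.0% identical to Scgb2b20 and 92.0% to Scgb2b12, and each holds 1 half-site that begins 179 to 182 bases before the start. The windows of Scgb2b27 and Scgb1b27 hold none. A half-site is common: it was found in 16.1% of 32807 mouse promoters of the same length and in 19 of the 29 Scgb1b and Scgb2b promoters of that table. The full palindrome, AGAACA and then TGTTCT with 3 bases between them, was in none of the 5 windows and in 0.00914% of all promoters.

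Each library was deposited as raw UMI counts, with 129015041 UMIs in 13273 barcodes of the knockout, against 47601747 in 5000 barcodes of heterozygote 1 and 100801564 in 13866 of heterozygote 2. Filtering left 8958 knockout cells, against 4517 and 9452 heterozygote cells, of which 1344, against 2447 and 4753, were luminal (secretory or proximal). Levels are given as UMIs per cell or as CPM, the gene's UMIs scaled to the total UMIs of the cells summed, and are not scaled by gene length. Intervals are exact 95% intervals and cover counting error only. Of the targeted gene, 17 Srd5a2 UMIs were found in the knockout, against 145 and 210 in the heterozygotes. Between 15 and 57 barcode sequences were shared by any 2 libraries. Heterozygote 1 holds no barcode under 2466 UMIs, and only 2 of its barcodes had under 500 genes, against 2521 in the knockout and 2249 in heterozygote 2.

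Over all kept cells the 6 genes split by genotype label into a pair that was abundant in the knockout and 4 genes that were almost absent from it. Scgb1b27 had 10388 UMIs in the knockout, against 65 and 116 in the heterozygotes. Scgb2b27 had 5564 UMIs in the knockout, against 974 and 931 in the heterozygotes. These totals are high in the knockout, but nearly all of the knockout's UMIs came from a single cell, described next. Scgb2b7 had 1 UMI in the knockout, against 839 and 1725 in the heterozygotes. Scgb2b20 had 0, against 418 and 798. Scgb1b20 had 0, against 154 and 475, and Scgb2b12 had 0, against 46 and 118. For these 4 genes the heterozygote libraries lay on the same side of the knockout, with 0 UMIs standing for fewer than 3 UMIs, or 0.0274 CPM, in the knockout.

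In the knockout, 1 cell carried most of the salivary pair. It held 8942 Scgb1b27 UMIs, 86.1% of that gene's UMIs in kept knockout cells, and 4652 Scgb2b27 UMIs, 83.6% of that gene's. Together they were 24.97% of the 54447 UMIs in that cell. The second-highest knockout cells held 83 and 133 UMIs. The predicted gene Gm7714, with 4725 UMIs, was as abundant in that cell as Scgb2b27, followed by 2310057J18Rik (4445), the prolactin-induced protein gene Pip (918) and the proline-rich Prol1 (892).

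That cell fell in a small cluster of 8 knockout cells, against 28 and 35 heterozygote cells, that passed 3 markers of salivary or lacrimal acinar cells: the secretory transcription factor Bhlha15, the water channel Aqp5 and Prol1. The acinar-like name has limits. Bpifa2, Smgc, Dcpp1, Dcpp2 and Dcpp3, secretory genes of salivary glands, had 0 UMIs in the cluster in all 3 libraries. The prostate secretory gene Pbsn was seen in all 8 of its knockout cells, at 241 CPM in the cluster and 4008 CPM in the library's other cells. Whether the cells belong to the prostate or to another gland was not tested. With a lower clustering resolution, or with secretoglobin genes allowed among the variable genes, the cell fell in an unnamed cluster. Other cells of the cluster mostly lacked the pair: Scgb1b27 was seen in 4 of 8 knockout cells, against 1 of 28 and 2 of 35 heterozygote cells. The heterozygotes had 1 high acinar-like cell each, with 38 Scgb1b27 and 29 Scgb2b27 UMIs in heterozygote 1 and 87 and 57 in heterozygote 2. The pair therefore occurred together at 10 or more UMIs in single acinar-like cells of all 3 libraries, at very different levels.

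Outside that cluster the knockout's pair was spread thinly over every class of at least 50 cells. Scgb1b27 stood at 0.150 UMIs per luminal cell (202 UMIs), 0.157 per basal cell, 0.161 per fibroblast, 0.137 per smooth muscle cell and 0.168 per T or NK cell. Over the 11 classes of at least 50 knockout cells it ranged from 0.107 to 0.239 UMIs per cell, although the classes' median depths ran from 2520.5 to 26263 UMIs. Barcodes under 500 genes, which hold little cellular RNA, still had 0.131 Scgb1b27 UMIs each. In the knockout the luminal level was thus no higher than in T or NK cells, a class that should lack the gene, and 10.2% of luminal cells against 9.05% of T or NK cells had a UMI, at median depths of 12794.5 and 2869.5 UMIs. A luminal share this close to that of T or NK cells does not show that luminal cells expressed the gene. Whether these UMIs were background RNA was not tested. The level was not even everywhere: it was lower in a cluster of 422 seminal vesicle-like cells (0.0498 UMIs per cell, median depth 2893.5) and in an unnamed cluster of 124 cells led by immune genes such as Cytip and Cd74 (0.00806, median depth 1493).

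The ratio of the 2 genes varied over the knockout library. It was 1.92 Scgb1b27 UMIs per Scgb2b27 UMI in the highest cell (1.86 to 1.99), 1.75 in all kept cells outside the acinar-like cluster (1.60 to 1.91) and 2.14 in barcodes under 500 genes (1.76 to 2.60). In the 7 other acinar-like knockout cells it was 0.704 (0.540 to 0.916). Over the 11 classes of at least 50 cells it ran from 0.731 in ionocytes (0.382 to 1.37) to 1.95 in basal cells (1.59 to 2.39). The heterozygotes did not show this spread. In classes other than luminal, acinar-like and unnamed that held at least 50 cells, Scgb1b27 had 792 UMIs in 5374 knockout cells, against 2 UMIs in 1478 cells of heterozygote 1 and 2 UMIs in 3042 cells of heterozygote 2.

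**Figure D1:**
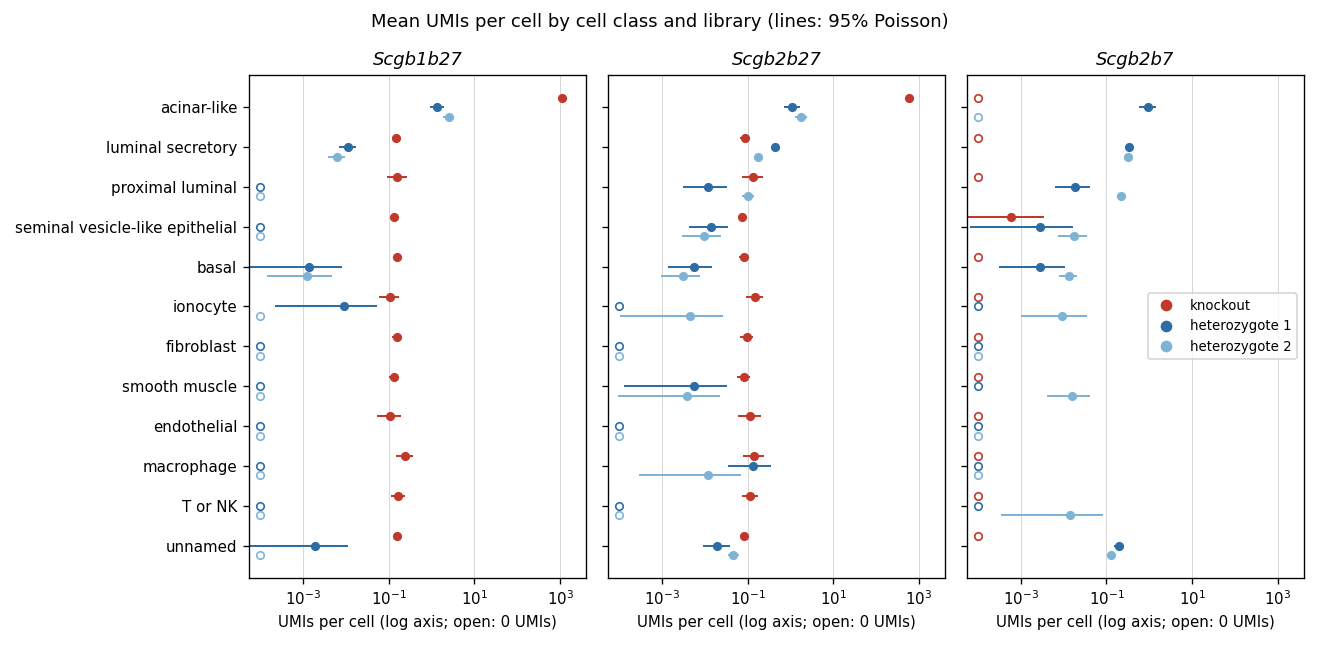
Mean UMIs per cell (log axis) of Scgb1b27, Scgb2b27 and Scgb2b7 by cell class in the knockout (red) and both heterozygotes (dark and light blue), with 95% Poisson intervals and open circles at 0 UMIs. Outside acinar-like cells the knockout's Scgb1b27 points stand between 0.107 and 0.239 in each class of at least 50 cells, while Scgb2b7 in the heterozygotes is higher in luminal secretory cells (0.332 and 0.326) than in basal cells (0.0028 and 0.013).

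In the heterozygotes the other 4 genes belonged to luminal cells, and mostly to a single cluster of them. Luminal cells held 85.5% of heterozygote Scgb2b7 UMIs, 93.3% of Scgb2b20, 92.8% of Scgb1b20 and 89.6% of Scgb2b12. Most of these lay in a luminal secretory cluster led by the protease inhibitor genes Spink5 and Spink1 and by Sbp, the spermine-binding protein of prostate fluid. That cluster alone carried 77.4% of Scgb2b7, 81.4% of Scgb2b20, 78.2% of Scgb1b20 and 72.6% of Scgb2b12. It also carried 70.9% of heterozygote Scgb2b27 but only 25.4% of heterozygote Scgb1b27, 69.6% of which lay in the acinar-like cluster. The secretoglobin genes took no part in the clustering.

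Within the Spink5-led cluster the knockout had 49 cells, against 274 in heterozygote 1 and 552 in heterozygote 2, with median depths of 16681 UMIs, against 14045.5 and 3180.5. Scgb2b7 stood at 0 UMIs in the 49 knockout cells, against 695 UMIs (158 CPM) in heterozygote 1 and 1290 UMIs (245 CPM) in heterozygote 2. Scgb2b20 stood at 0, against 89.6 and 113 CPM, Scgb1b20 at 0, against 28.4 and 69.6 CPM, and Scgb2b12 at 0, against 9.53 and 14.6 CPM. None of the 4 genes was seen in any of these knockout cells, although they were the deepest of the 3 libraries by median.

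The number of knockout cells bounds what this shows. With 0 of 49 cells, a share of up to 6.12% of cells with a UMI of any of the 4 genes is allowed in this library, and since the genes were chosen for their low knockout values, the shares are a description. The heterozygotes had such a UMI in 18.2% (13.9 to 23.3%) and 20.8% (17.5 to 24.5%) of the cluster's cells. After thinning each cell to 1200 UMIs, which left out 0, 0 and 47 shallower cells, the shares were 0% in the knockout (up to 7.25%), against 5.47% (3.096 to 8.87%) and 9.31% (6.92 to 12.2%). Cells with 10 or more UMIs of the 4 genes were 6.57% and 5.43% of the heterozygotes' cells in the cluster, both below the knockout's upper limit of 7.25%. The cluster's cells were 3.65% of luminal cells in the knockout, against 11.2% and 11.6% in the heterozygotes.

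Outside the Spink5-led cluster the 4 genes were found mainly in clusters that held few knockout cells. A proximal luminal cluster of 0 knockout cells, against 9 and 341 heterozygote cells, with Cxcl17, Wfdc2 and Sbp among its leading genes, carried 10.8% of heterozygote Scgb2b20, 11.3% of Scgb1b20 and 14.6% of Scgb2b12. Most of this came from 1 cell of heterozygote 2, which held 115 of the cluster's 129 Scgb2b20 UMIs in that library, 63 of 69 Scgb1b20 UMIs and 22 of 24 Scgb2b12 UMIs. An unnamed cluster of 6 knockout cells, against 24 and 506 heterozygote cells, led by Spink1 and Pigr, carried 7.68% of Scgb2b7. In heterozygote 1, all 26 acinar-like Scgb2b7 UMIs lay in 1 cell, and 94 of the 100 UMIs of unnamed cells in another. In the other non-luminal classes of at least 50 cells, with acinar-like and unnamed cells left out, Scgb2b7 had 1 UMI in 5374 knockout cells, against 3 UMIs in 1478 and 37 UMIs in 3042 heterozygote cells, with at most 2 UMIs in a cell. Scgb2b12 had 0 UMIs there in all 3 libraries.

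Expression was concentrated in few cells in the heterozygotes as well. For Scgb2b7, 4 cells of heterozygote 1 and 11 cells of heterozygote 2 held 50% of the library's UMIs, the highest with 167 and 135. For Scgb2b20 it took 2 and 3 cells, the highest with 130 and 207 UMIs. For Scgb1b20 it took 3 and 4 cells, and for Scgb2b12 3 and 5 cells. These counts say that a library's level of the genes rests on a handful of cells, and the genes were seen at all in few cells: Scgb2b7 in 1.28% and 3.31% of heterozygote cells, Scgb2b20 in 0.930% and 1.34%, Scgb1b20 in 0.708% and 0.868%. Taken over all 3 libraries, the 10 highest cells held 41.7% of Scgb2b7 (80.0% without heterozygote 2), 69.3% of Scgb2b20, 66.9% of Scgb1b20 and 55.5% of Scgb2b12.

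**Figure D2:**
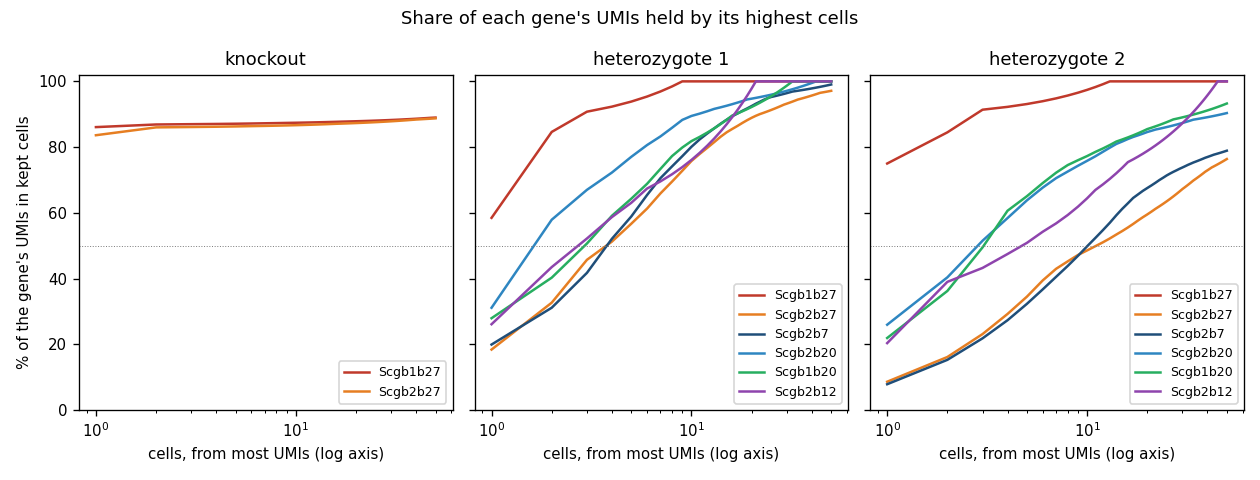
Cumulative percent of each gene's UMIs in kept cells (vertical axis) against the number of its highest cells (log axis, up to 50), in the knockout, heterozygote 1 and heterozygote 2; genes with under 10 UMIs in a library are left out. In the knockout 1 cell holds 86.1% of Scgb1b27 and 83.6% of Scgb2b27, whereas 50% of Scgb2b7 takes 4 and 11 heterozygote cells.

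Scgb2b27 in the heterozygotes did not follow its salivary partner. Luminal cells held 94.4% and 84.0% of its UMIs in heterozygotes 1 and 2. In the Spink5-led cluster it stood at 7 UMIs in the knockout, against 892 UMIs (202 CPM) in heterozygote 1 and 459 UMIs (87.1 CPM) in heterozygote 2. Heterozygote 2 had a further 239 Scgb2b27 UMIs (72.4 CPM) in a luminal secretory cluster of 9 knockout cells, against 37 and 356 heterozygote cells. Of the 34 heterozygote cells with 10 or more Scgb2b27 UMIs, 25 had no Scgb1b27 UMI, and together they held 0.123 Scgb1b27 UMIs per Scgb2b27 UMI, compared with 1.92 in the highest knockout cell. Without the 2 acinar-like cells among them, the other 32 held 43 Scgb1b27 and 1284 Scgb2b27 UMIs, a ratio of 0.0335. Both genes of the classical pair reached 10 UMIs in 4 heterozygote cells, of which 2 were acinar-like. The others lay in the Spink5-led cluster, with 17 Scgb1b27 and 139 Scgb2b27 UMIs in heterozygote 1 and 11 and 80 in heterozygote 2. Outside the acinar-like cluster, heterozygote cells mostly had Scgb2b27 without Scgb1b27.

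High counts of Scgb2b27 and of Scgb2b7 were mostly found in different cells, but the sets overlapped. Heterozygote cells with 10 or more UMIs were 34 for Scgb2b27 and 41 for Scgb2b7, and 6 cells were in both sets, 17.6% of the first set and 14.6% of the other. These shares are not low. Of all heterozygote cells in the Spink5-led cluster, 4.74% and 4.53% had 10 or more Scgb2b7 UMIs. For Scgb2b27 the cluster's shares were 5.11% and 1.63%. Scgb2b7 and Scgb2b20 were found together more often, in 16 cells, which is 39.0% of the 41 Scgb2b7 cells and 72.7% of the 22 Scgb2b20 cells. Scgb1b20, the alpha neighbour of Scgb2b20, reached 10 UMIs in 12 cells. Of these, 10 were also Scgb2b20 cells, 83.3% of the Scgb1b20 cells and 45.5% of the Scgb2b20 cells. All 12 had at least 1 Scgb2b20 UMI. Cells share libraries, so the overlaps describe these 2 libraries and carry no test.

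Altogether 52 heterozygote cells, 22 of heterozygote 1 and 30 of heterozygote 2, held 20 or more UMIs of the 6 genes. Of these, 45 lay in the Spink5-led cluster. Their depths ran from 4031 to 65006 UMIs, with a median of 24805.5. In 10 of them Scgb2b27 was at 10 or more UMIs with 0 of Scgb2b7, Scgb2b20, Scgb1b20 and Scgb2b12, while 18 had 10 or more UMIs of those 4 and 0 of Scgb2b27. The cells were picked by the sum of these same genes, so a cell low in 1 kind had to be high in another. These counts therefore do not show that the kinds exclude each other. A cell of heterozygote 1 held 179 Scgb2b27 UMIs among 8998, and another held 167 Scgb2b7 UMIs among 22084, each with 0 UMIs of the other gene.

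The near-identical Scgb2b7 and Scgb2b20 were not counted in a fixed proportion. In the 32 cells with at least 20 UMIs of the 2 genes together, Scgb2b20 made up 0% to 93.9% (median 19.4%), and it exceeded Scgb2b7 in 9 of them. A cell of heterozygote 2 held 128 Scgb2b7 and 4 Scgb2b20 UMIs, and another held 53 and 207. Likewise Scgb1b20 made up 4.41% to 79.1% of the pair Scgb1b20 and Scgb2b20 in the 17 cells with at least 20 UMIs of that pair, and all 17 had both genes.

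**Figure D3:**
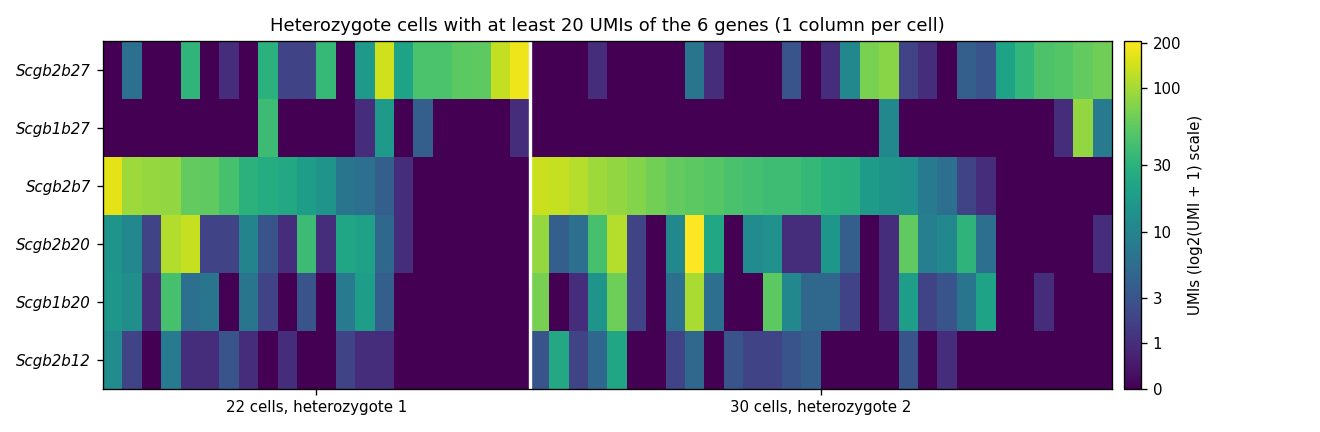
UMIs of the 6 genes (rows; colour on a log2(UMI + 1) scale) in the 52 heterozygote cells with at least 20 UMIs of these genes, 1 column per cell, with 22 cells of heterozygote 1 on the left and 30 of heterozygote 2 on the right. Of these cells, 21 had 10 or more Scgb2b27 UMIs, 39 had 10 or more UMIs of Scgb2b7, Scgb2b20, Scgb1b20 and Scgb2b12 together, and 8 had both. Because the cells were picked by the sum of these same genes, the overlap of columns does not measure how far the kinds are apart.

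Summed over luminal cells, the level of 5 genes was below both heterozygotes in the knockout and that of Scgb1b27 above both. Among all 16742 genes tested in luminal cells, 39.5% had a knockout CPM below both heterozygotes and 27.9% above both, and because this contrast chose the genes, nothing is read from their count. In such sums fewer cells of a type and less RNA per cell cannot be told apart. Scgb2b7 was at 0 CPM in knockout luminal cells, against 26.4 and 29.6 CPM in heterozygote ones, which is at least 185-fold lower when the knockout is set at the floor of 3 UMIs over the group. Scgb2b20 stood at 0, against 14.9 and 14.7 CPM (at least 95.9-fold lower). Scgb1b20 stood at 0, against 4.87 and 9.04 CPM (at least 49.3-fold lower). Scgb2b12 stood at 0, against 1.60 and 2.08 CPM (at least 12.4-fold lower). Without the 10 luminal cells of each library that held most, the log2 bounds were -5.98 for Scgb2b7, -3.79 for Scgb2b20, -3.11 for Scgb1b20 and -1.65 for Scgb2b12, against -7.53, -6.58, -5.62 and -3.63 with all cells. For each of these 4 genes both heterozygotes lay above the knockout's floor of 0.154 CPM. Without heterozygote 2 the bound for Scgb1b20 was -4.99 on the log2 scale, against -5.62 with both.

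The salivary pair differed in opposite directions in these luminal sums. Scgb2b27 was at 6.20 CPM in knockout luminal cells, against 34.1 and 15.6 CPM, and the summed heterozygotes were 3.56-fold above the knockout (2.96 to 4.32). The knockout's 121 luminal Scgb2b27 UMIs amounted to 0.0900 per cell, against 0.116 per T or NK cell of the same library. Scgb1b27 was at 10.3 CPM in knockout luminal cells, against 0.892 and 0.519 CPM, a level 15.9-fold higher (11.6 to 22.2) on 202 UMIs, against 24 and 26. Without the 10 highest luminal cells of each library it had 165 UMIs in the knockout, against 0 in both heterozygotes together. Counted with acinar-like cells included, the log2 difference of Scgb2b27 was 3.44, and over all barcodes 1.73, against -1.83 in luminal cells. It was -2.46 without heterozygote 2 and -0.74 without the 10 luminal cells of each library that held most.

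**Figure D4:**
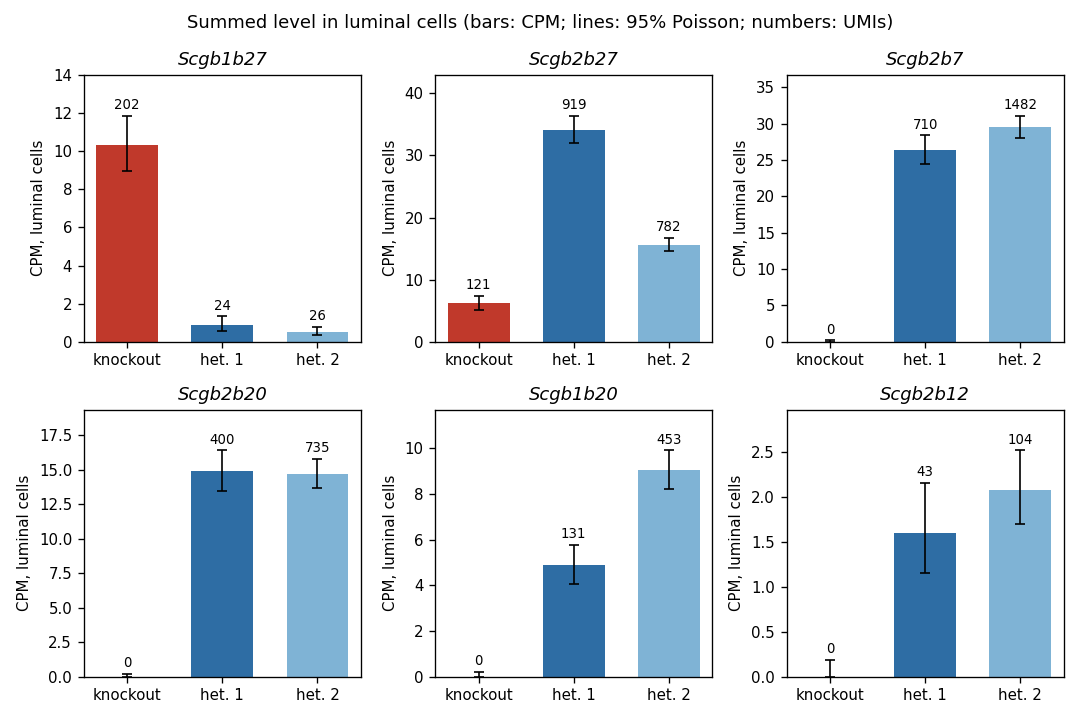
Level of each gene summed over luminal cells (bars, CPM; lines, 95% Poisson intervals; numbers, UMIs) in the knockout and both heterozygotes. The knockout bar is at 0 for Scgb2b7, Scgb2b20, Scgb1b20 and Scgb2b12, at 6.20 against 34.1 and 15.6 CPM for Scgb2b27, and at 10.3 against 0.892 and 0.519 CPM for Scgb1b27.

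Genes with the most similar pattern were sought over 80 groups of at least 20 cells (cluster by library), as Pearson's r of log2(CPM + 1). The groups share libraries and depth, and the values are a description. The 8 acinar-like knockout cells were too few to form a group, so the highest knockout cell took no part. The knockout values of Scgb1b27 and Scgb2b27 are therefore those of the thin spread over other cells. Among genes other than secretoglobins, Scgb2b7 was closest to Mug1, a murinoglobulin protease inhibitor (r = 0.79), Sbp (0.67) and Spink1 (0.65). Mug1 was also the closest of these to Scgb2b20 (0.84), and its level over kept cells was 0.0731 CPM in the knockout, against 8.40 and 7.24 CPM. Scgb2b20 was further closest to Gm50207 (0.72) and Tex24 (0.71), Scgb1b20 to Tex24 (0.67), Spin2e (0.67) and Mug1 (0.64), and Scgb2b12 to Spin2e (0.79), Slc10a2 (0.74) and Gm50207 (0.73). Among the 6 genes themselves, r was 0.82 for Scgb2b7 with Scgb2b20, 0.81 for Scgb2b7 with Scgb1b20, 0.87 for Scgb2b20 with Scgb2b12 and 0.17 for Scgb2b7 with Scgb2b27. Again among other genes, Scgb1b27 was closest to Gm7714 (0.91), 4930563H07Rik (0.75) and the seminal vesicle gene Sva (0.73). Each was higher in the knockout library as a whole, Sva at 6340 CPM, against 75.6 and 0.985 CPM. For Gm7714 that level rests mostly on the highest knockout cell, which held 4725 of its 4997 UMIs in kept cells of all libraries. Scgb2b27 was closest to Gm7714 (0.70), Fndc7 (0.50) and Gm38409 (0.45).

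The other secretoglobins were read in an edgeR quasi-likelihood fit over all 16742 luminal genes, in which 284 (1.7%) were called at a Benjamini-Hochberg adjusted p under 0.05, 1.03% lower and 0.663% higher in the knockout. Of the 28 other Scgb genes, 9 had 10 or more UMIs in kept cells and 10 had none in any library. In luminal cells 5 were tested, and 2 passed, both lower. Scgb2b17 had 0 UMIs in the knockout, against 66 and 45 in the heterozygotes (adjusted p = 8.83e-06), and all of its 90-base stretches occur in another Scgb transcript. Scgb2b24 had 3 UMIs in the knockout, against 73 and 64, and fell by 3.603 ± 0.77 (log2 fold change ± SE, adjusted p = 5.02e-04). Scgb1b3 (0, against 27 and 12 UMIs; adjusted p = 0.0618), Scgb2b19 (0, against 13 and 8; adjusted p = 0.454) and Scgb2a2 (0, against 2 and 21; adjusted p = 0.499) did not pass. Scgb1b3 passed in 6 of 12 alternative settings, and Scgb2b24 lost its call with acinar-like cells counted as luminal. The low Scgb2b24 count held for luminal cells only. Over all kept cells it had 94 UMIs in the knockout (0.859 CPM), against 74 and 91 in the heterozygotes (1.66 and 1.12 CPM). DESeq2 called 0 of the other secretoglobins, with 647 genes at an unadjusted p under 0.05 in its fit and 1350 in edgeR's. Of the rest, Scgb1b7 had 0 UMIs in kept knockout cells, against 6 and 14, while Scgb3a1 (17, against 2 and 4), Scgb3a2 (16, against 5 and 8) and Scgb1c1 (5, against 2 and 4) were too rare in luminal cells to be tested.

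**Figure D5:**
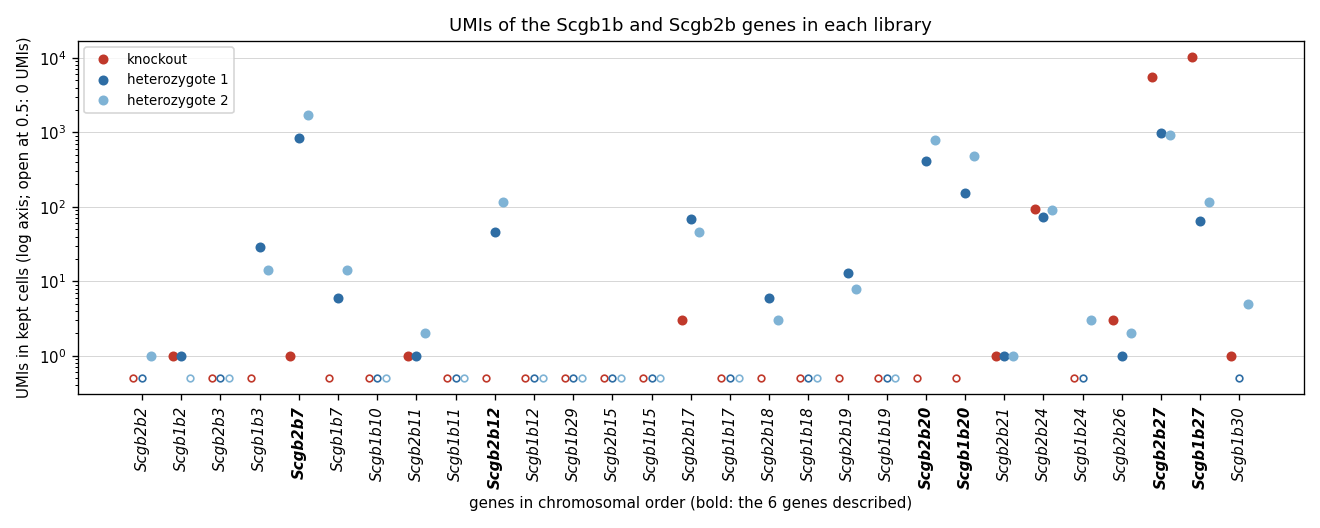
UMIs in kept cells (log axis; open circles at 0 UMIs) of the Scgb1b and Scgb2b genes in chromosomal order, in the knockout (red) and heterozygotes (dark and light blue), the 6 genes described in bold. Knockout UMIs are high for Scgb1b27 (10388) and Scgb2b27 (5564) and at 1 or 0 for Scgb2b7, Scgb2b12, Scgb2b20 and Scgb1b20.

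The gene lists gave the setting in the same luminal fit, in which fewer cells of a type and less RNA per cell cannot be told apart. The Spink5-led cluster was 3.65% of luminal cells in the knockout, against 11.2% and 11.6% in the heterozygotes. It held 85.5% of Sbp and 66.9% of Spink1 UMIs in kept cells of all libraries. Of 13 prostate secretory genes, all tested, 5 were called lower, 0 higher and 8 did not pass, with a median log2 difference of -0.74 against -0.03 over all genes. Those called included Sbp (adjusted p = 1.30e-04) and Spink1 (adjusted p = 9.87e-05), which also lead the cluster that carried the members, the related Sbpl (adjusted p = 5.62e-06), the secreted Crisp1 (0 UMIs, against 121 and 128; adjusted p = 7.45e-12) and the androgen-responsive Fkbp5 (adjusted p = 0.0213). Probasin (Pbsn) moved by 0.03 ± 0.35 (adjusted p = 0.999). Of 16 salivary and lacrimal secretory genes, 6 were tested: Prol1 fell by 3.32 ± 0.36 (7.22 CPM, against 45.6 and 105; adjusted p = 3.88e-17), and 5 did not pass, among them Egf at -0.42 ± 0.32 and Amy1 at 0.59 ± 0.29, with a list median of -0.81. Prol1 is also a marker of the acinar-like cluster (8 cells, against 28 and 35), and in all cells outside that cluster it stood at 7.11 CPM in the knockout and 49.4 and 151 CPM in the heterozygotes. The part of RNA from acinar-like cells in its luminal level was not tested. Of 8 steroid receptor and 5α-reductase genes, 7 were tested and 1 was called, the progesterone receptor Pgr, which rose by 1.53 (4.87 CPM, against 2.30 and 1.24; adjusted p = 0.0158). The estrogen receptor Esr1 moved by 0.28 and the glucocorticoid receptor Nr3c1 by -0.10, neither past the threshold, and the list's median was -0.10. The fit has 1 residual degree of freedom: it takes the spread of the single knockout from that of the 2 heterozygotes. It also pools that spread over genes. The p-values and SEs therefore rest mostly on the pooled spread and little on a gene's own 2 heterozygote values.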

How the data were processed

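Cells of whole mouse prostate were measured by droplet single-cell sequencing (10x Genomics). The authors deposited raw UMI counts per gene and barcode, for which the submitters' processing notes name Cell Ranger 3.1.0 and mm10; no source used here gives the chemistry, the cell calling or the handling of reads that fit several genes. Groups follow the genotype labels. The 6 genes and all gene lists were chosen with earlier results of these data known.

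Kept cells had 500 or more genes and no more than 15% of UMIs from mitochondria, and predicted doublets were removed (10.2% of barcodes scored in the knockout, against 4.19% and 9.996% in the heterozygotes). Cells were clustered together (2000 variable genes, 30 principal components, 15 neighbours, Leiden at resolution 1.0, igraph 0.11.9, coordinates rounded to whole numbers for exact repeats). All Scgb genes and genes that made up 0.1% or more of the UMIs of barcodes under 500 genes were left out of the clustering. A name needed at least 3 markers at a log2 fold of 1.0 and in 25% of cells. After the clusters were seen it was added that seminal vesicle-like names, and names where another list also passed, need a marker of their own among the 10 leading genes. This left unnamed a cluster of 388 knockout cells, against 335 and 144 heterozygote cells, that marker counts alone call proximal luminal. Unnamed cells were 24.7% of kept cells in the knockout, against 11.2% and 16.7%.

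UMIs were summed per library over luminal cells and tested with edgeR 4.0.16 (filterByExpr, TMM, quasi-likelihood, Benjamini-Hochberg over all genes, 0.05); DESeq2 1.42.0 was an alternative. On simulated counts for this luminal comparison, with 16635 genes tested, 12, 30, 50 and 46 of 50 genes changed 2-fold, 4-fold, 8-fold and 16-fold were recovered, with 14 false calls. Named genes are the 6, other Scgb genes with at least 10 UMIs, the 3 most similar non-Scgb genes of each of the 6, and of the lists those that passed or, where fewer than 3 passed, the 3 most abundant; 1 of these is not reported here. Promoters are from RefSeq, where 5 of the 6 matched. Within a group, libraries are not stated to be separate animals, so p-values measure the spread between these samples, which may be technical.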

Additional observations from a re-analysis of the deposited data

Results flagged for a closer look

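Scgb1b27 and Scgb2b27 were also found in barcodes that did not pass as kept cells. In the barcodes outside the kept cells, Scgb1b27 stood at 29.5 CPM (27.1 to 32.0; 576 UMIs) in the knockout, against 0 and 0.357 CPM in the heterozygotes. Scgb2b27 stood there at 15.2 CPM (13.6 to 17.1; 298 UMIs) in the knockout, against 1.62 and 6.27 CPM. Both stood above the heterozygotes in barcodes that the luminal comparison did not use.

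Scgb2b27 differed in opposite directions between luminal cells and other cells. It was below both heterozygotes in knockout luminal cells (6.20 CPM, against 34.1 and 15.6) and above both in 6 other classes. Within the luminal cells, the proximal ones also had the knockout above both, at 15.5 CPM, against 1.57 and 13.6. The knockout stood at 16.5 CPM in basal cells, against 1.52 and 1.01, and at 14.1 CPM in smooth muscle, against 1.19 and 0.797. In endothelial cells it stood at 30.8 CPM and in fibroblasts at 35.3 CPM, against 0 in both heterozygotes. It stood at 9.46 CPM in ionocytes, against 0 and 0.259, and at 2.18 CPM in seminal vesicle-like cells, against 0.787 and 0.453. Per cell, the knockout's level in these 6 classes was 0.0744 to 0.147 UMIs, against 0.0900 in its luminal cells and 0.0611 in its barcodes under 500 genes. The difference between the classes was not tested.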

How the results depend on the processing

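Of 90 recomputed luminal differences of the 6 genes, 2 changed direction, both of Scgb2b27, whose log2 difference of -1.83 became 1.73 over all deposited barcodes and 3.44 with acinar-like cells counted as luminal, settings that take in the knockout cell with 4652 UMIs. Without the 10 highest luminal cells of each library Scgb2b27 stood at -0.74 and Scgb1b27 at 7.76, a bound at the floor of 3 UMIs since the heterozygotes were then at 0. Over all kept cells but the highest knockout cell, they stood at -0.86 and 3.20. Over the 15 alternatives of each gene, the bounds for Scgb2b7, Scgb2b20, Scgb1b20 and Scgb2b12 stayed below 0, at most -5.98, -3.79, -3.11 and -1.65. The 284 luminal calls became 101 with DESeq2 and 551 with the cluster that marker counts alone call proximal luminal, and the 2 calls among other secretoglobins became 0 with DESeq2 and 1 with acinar-like cells added; the cause was not tested. They became 3, with Scgb1b3 called too, without a low-count filter, with secretoglobins allowed in clustering, with the looser or stricter cell filter, with doublets kept and with luminal cells named by marker count alone. Settings on luminal naming, the highest knockout cell and acinar-like cells were chosen after seeing the data. Leaving out a heterozygote left 1 library against 1 and gave no count of calls. No paired analysis was possible because no label pairs the knockout with a heterozygote. The replicate numbers only count libraries within a genotype. In the Spink5-led cluster the number of knockout cells, 49, limits what their 0 UMIs show.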
